A study of Mus musculus with 16 samples.

Results

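The data describe 5 squamous cell carcinomas of the skin, called pRbp53 tumors, beside 4 samples of control skin, and so 9 of the 16 arrays of the series. Members were taken by sample title alone. The tumors arose in k14Cre;p53loxP/loxP;pRbloxP/loxP mice, in which Cre recombinase under the keratin 14 promoter removes floxed p53 and Rb1 alleles in keratinocytes of stratified epithelia, so that other cells of a tumor keep them. Control skin was normal skin of wild type mice, and both groups had the FVB background. Age, sex, body site and time of sampling are not in the labels. By histology, tumors 1, 2, 3 and 5 were labelled spindle cell carcinoma and tumor 4 mixed. The other 7 arrays hold p53 tumors, from k14Cre;p53loxP/loxP mice, and they enter only where a difference from them is named. Values are log2 signals, so that a difference of 1 is a doubling. Nothing in the labels says that samples came from separate animals, and p-values then reflect no more than the spread of these samples, which may be technical.

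As background, pRb binds E2F transcription factors and holds back genes for DNA synthesis and mitosis until cyclin-dependent kinases phosphorylate it. p53 acts after DNA damage or other stress and induces genes that arrest the cycle or kill the cell, among them the kinase inhibitor gene Cdkn1a. In skin, keratinocytes leave the cycle as they move up from the basal layer and switch to keratins and envelope proteins of the cornified layer. Spindle cell carcinomas are made of elongated cells that have few epithelial traits, a state often described as an epithelial to mesenchymal transition.

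Genes of cell division rose as a group, and promoters of such genes are shown first because E2F factors are known to act there. The stretches below are the 200 bases before the start site of the 5 genes with the largest difference among called genes for DNA replication and mitosis. They come from RefSeq on GRCm38.p6 and are written 5′ to 3′ on the strand of the gene. Capitals mark matches, on either strand, to the E2F motifs TTTGGCGC and TTTCGCGC, to the CHR element TTTGAA and to the CCAAT box. CHR and CCAAT elements are known from promoters of late cell cycle genes. Bub1 lies on the minus strand at chr2:127831860-127832059, Ncapg on the plus strand at chr5:45669725-45669924, Birc5 on the plus strand at chr11:117849037-117849236, Ect2 on the minus strand at chr3:27153879-27154078 and Cdk1 on the minus strand at chr10:69352913-69353112.
Bub1: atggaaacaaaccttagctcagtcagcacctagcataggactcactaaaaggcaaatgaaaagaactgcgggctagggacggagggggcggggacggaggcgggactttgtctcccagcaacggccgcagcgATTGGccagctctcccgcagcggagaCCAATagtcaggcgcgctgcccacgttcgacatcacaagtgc
Ncapg: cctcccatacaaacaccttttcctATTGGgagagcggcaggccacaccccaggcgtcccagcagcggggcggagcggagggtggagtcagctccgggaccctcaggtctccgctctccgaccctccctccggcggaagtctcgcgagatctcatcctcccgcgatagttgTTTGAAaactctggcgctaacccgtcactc
Birc5: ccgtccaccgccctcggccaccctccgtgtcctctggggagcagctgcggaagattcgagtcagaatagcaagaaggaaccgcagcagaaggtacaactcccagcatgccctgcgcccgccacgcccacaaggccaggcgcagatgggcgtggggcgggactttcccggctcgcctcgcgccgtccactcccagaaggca
Ect2: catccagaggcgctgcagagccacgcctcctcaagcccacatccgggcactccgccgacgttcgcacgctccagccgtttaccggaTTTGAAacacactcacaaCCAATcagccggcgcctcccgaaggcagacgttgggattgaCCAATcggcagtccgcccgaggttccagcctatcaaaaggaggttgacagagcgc
Cdk1: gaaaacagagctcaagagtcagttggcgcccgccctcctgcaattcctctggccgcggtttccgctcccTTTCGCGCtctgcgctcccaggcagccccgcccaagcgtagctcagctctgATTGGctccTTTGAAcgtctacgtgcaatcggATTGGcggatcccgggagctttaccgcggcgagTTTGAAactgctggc
The Cdk1 stretch holds 1 E2F match, 2 CHR matches and 2 CCAAT matches, whereas the Birc5 stretch holds none of these letters. Bub1 has 2 CCAAT matches, Ect2 1 CHR match and 2 CCAAT matches, and Ncapg 1 of each. Of 27025 promoters of the same length, 30.0% hold a CCAAT match, 12.7% a CHR match and 0.6% either E2F motif. Among 35 measured mitosis genes with a promoter in the table these shares are 74.3%, 31.4% and 2.9%. Among 30 DNA replication genes they are 56.7%, 10.0% and 16.7%. A match is a run of letters and does not show binding.

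Expression of the targeted gene Rb1 was 9.12, 9.54, 8.98 and 9.40 in control skin 1 to 4, and 7.93, 7.94, 7.67, 7.10 and 7.85 in pRbp53 tumors 1 to 5. All 5 tumors lay below all 4 controls. The drop in Rb1, -1.56 ± 0.20 (SE), passed the test (limma adjusted p = 6.92e-04). A dimmer probeset of Rb1 read 3.70 ± 0.12 (SD, n = 4) in control skin and 3.82 ± 0.06 (SD, n = 5) in the tumors and was not called. Where the probesets lie relative to the deleted part is not known here, so neither value checks the labels. At the brighter probeset the 7 p53 tumors, from mice without floxed Rb1, also lay below all 4 controls (7.575 to 8.496). The drop was thus not particular to pRbp53 tumors.

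The tumors differed from control skin at 8237 of 45037 probesets (18.3%), 3859 of them higher in tumors and 4378 lower. Read as genes, 1870 of 18193 were higher (10.3%) and 2389 lower (13.1%), at an adjusted p of 0.05. These shares are the background for each list count below, also where they are not repeated. The groups did not overlap for 2058 genes that were higher (11.3%) and for 2394 that were lower (13.2%). Falls were larger than rises. A called difference of at least 2 was seen for 886 lower genes and 242 higher genes. The median difference over all genes was 0.05, and the median SD of a gene was 0.20 in control skin and 0.32 among the tumors. Median signals of the 9 arrays lay between 5.68 and 5.76, and 5% of the probesets of an array lay below 3.09 to 3.19. Fallen genes that read 3 to 4 in the tumors are thus at the low end of the array, where a further fall could not be read.

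A few libraries stood apart. Control skin 2 and 4 differed least among the controls, with a SD of their differences of 0.22 over all probesets against 0.41 to 0.57 for other pairs. Control skin 3 had a 3′ minus 5′ difference of actin of 1.33, a sign of RNA breakdown, against 0.32 to 0.68 in the other 8 arrays. The first principal component, 57.1% of the variance, separated control skin from tumors, and the second (15.8%) set tumor 4 at -137.55 against 5.48 to 49.37 for the spindle cell tumors. Counts with arrays left out are given for some lists only, and a list without such a count is not thereby stable. For example, 4 hair follicle stem and lineage regulators were lower. This count was 2 without any 1 of the controls and 6 without tumor 4.

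The 15 largest rises ran from 3.97 to 6.16. Mmp13, a collagenase, was 3.68, 3.38, 3.90 and 3.77 in control skin 1 to 4 and 6.94, 9.20, 12.21, 10.21 and 10.62 in tumors 1 to 5. It rose by 6.16 ± 0.87 (SE, limma adjusted p = 0.00126), and its values ranged widely among the tumors. Tnc, which encodes the wound matrix protein tenascin C, was 5.97, 7.22, 6.99 and 6.30 in control skin and 10.92, 12.56, 12.44, 10.46 and 12.59 in the tumors. It rose by 5.17 ± 0.51 (adjusted p = 1.42e-04). Its paralog Tnn rose by 4.15 ± 0.91 and was lowest in the mixed tumor, at 6.58 against 9.32 to 11.98 in the spindle cell tumors.

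Hmga2, a chromatin protein of embryonic tissue, was 5.37, 4.93, 5.70 and 4.98 in control skin and 11.28, 9.67, 8.66, 9.53 and 10.13 in the tumors. It rose by 4.61 ± 0.45 (limma adjusted p = 1.36e-04), and all 4 of its probesets were called higher. Mest, an imprinted gene of fetal tissue, rose by 4.43 ± 0.73, and Mdk, which encodes the growth factor midkine, by 4.35 ± 0.58. Timp1, an inhibitor of metalloproteinases, rose by 4.42 ± 0.62, Plod2, which hydroxylates collagen lysines, by 4.22 ± 0.50, and Ccn4, a matricellular Wnt target, by 3.98 ± 0.32. The cannabinoid receptor gene Cnr1 rose by 4.72 ± 0.72, the calsyntenin gene Clstn2 by 4.15 ± 0.67 and Lrrc15, a membrane protein of activated fibroblasts, by 3.97 ± 0.33. Vcam1, an adhesion molecule for leukocytes, rose by 3.97 ± 0.79. Xaf1, an interferon-inducible gene of apoptosis, rose by 4.94 ± 0.35 at its brightest probeset, while its other probeset was called lower by 1.34, so its direction is uncertain.

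Chil3, a chitinase-like protein of myeloid cells, was 3.42 to 3.61 in control skin and 10.12, 9.28, 10.71 and 10.57 in the spindle cell tumors, but 3.61 in the mixed tumor. It was called over all 5 tumors (5.34 ± 1.32, limma adjusted p = 0.0218), and the call was lost when any 1 of the 4 control arrays was left out (highest adjusted p = 0.0589).

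**Figure D1:**
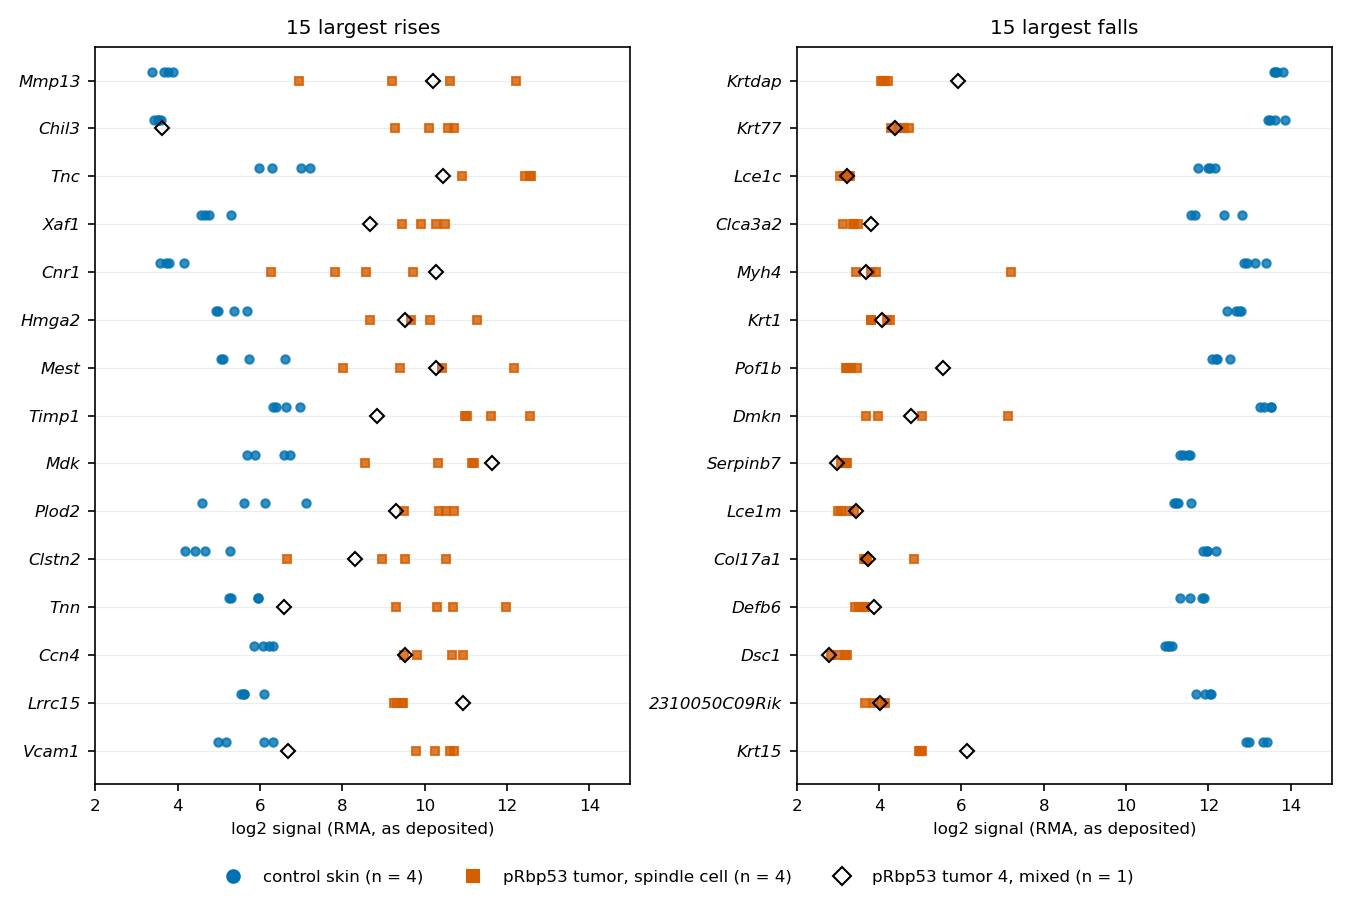
Log2 signal of the 15 genes with the largest rise (left) and the 15 with the largest fall (right) in each array, with circles for control skin, squares for spindle cell pRbp53 tumors and diamonds for mixed tumor 4. The fallen genes lie above 10 in each control and at or below 7.20 in each tumor, while the risen genes spread more widely among tumors, and Chil3 in tumor 4 lies at the level of control skin.

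The 15 largest falls included 6 genes of the cornified list, 2 of the hemidesmosome and basal list, 1 of the desmosome list and 1 of the skeletal muscle list. Krtdap, a peptide of differentiating keratinocytes, was 13.59, 13.66, 13.61 and 13.81 in control skin and 4.14, 4.08, 4.06, 5.92 and 4.21 in the tumors. It fell by 9.19 ± 0.37 (SE, limma adjusted p = 2.50e-07). The keratin Krt77 fell by 9.10 ± 0.13 and Krt1, the main suprabasal keratin, fell by 8.63 ± 0.14. Lce1c and Lce1m, of the late cornified envelope, fell by 8.79 ± 0.11 and 8.07 ± 0.14. Dmkn, a secreted epidermal protein, fell by 8.48 ± 0.61, and the epidermal protease inhibitor gene Serpinb7 fell by 8.31 ± 0.10. Pof1b, which binds actin in epithelia, fell by 8.50 ± 0.46, the chloride channel regulator Clca3a2 fell by 8.67 ± 0.26, the defensin Defb6 fell by 8.03 ± 0.15 and 2310050C09Rik fell by 7.98 ± 0.13.

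Of 28 measured genes of cornified epidermis, 26 fell and none rose, with a median difference of -6.35. Loricrin (Lor) fell by 6.98 and filaggrin (Flg) fell by 6.08. The mean signal of the list was 10.24 to 10.37 in control skin and 4.61 to 4.75 in the tumors, the mixed tumor included. Casp14 and Lce3a were not called. 

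Cell junctions fell as well. Of 13 measured desmosome genes 12 fell (median -4.67), of 19 genes of adherens and tight junctions 15 fell and Ctnnb1 alone rose (median -3.55), and of 14 genes of hemidesmosomes and basal keratinocytes 9 fell (median -2.50). The desmosomal cadherins Dsc1, Dsg1a and Dsc3 fell by 8.03 ± 0.12, 7.86 ± 0.12 and 7.66 ± 0.10, and their values did not exceed 3.99 in any tumor. Col17a1, a collagen of the hemidesmosome, was 11.87 to 12.17 in control skin and 3.62 to 4.86 in the tumors and fell by 8.07 ± 0.25 (limma adjusted p = 4.73e-08). The basal keratins Krt5 and Krt15 fell by 7.50 ± 0.16 and 7.93 ± 0.26. Perp, a desmosomal protein and p53 target, fell by 7.12 ± 0.66. The tight junction gene Cldn1 fell by 4.72 ± 0.84 and Rab25, of epithelial vesicle traffic, fell by 4.93 ± 0.27.

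The tumors are labelled squamous cell carcinoma, and keratin 14 drives the Cre that made them. Yet Krt14 was 12.90, 13.17, 13.13 and 13.18 in control skin and 4.36, 4.46, 4.83, 9.32 and 5.47 in tumors 1 to 5. It fell by 7.41 ± 0.92 (limma adjusted p = 6.07e-04), and only tumor 4 was above 6. The defining keratins of squamous epithelium, Krt5 and Krt14, thus read at most 5.72 and 5.47 in the 4 spindle cell tumors. In tissue samples, fewer cells of a type and less RNA per cell cannot be told apart, and this holds for each list of cell type genes given here.

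Regulators of epithelial identity changed in the same direction, with 13 of 16 lower, none higher and a median of -3.05. The splicing factors Esrp1 and Esrp2, which set epithelial isoforms, fell by 6.42 ± 0.92 and 5.17 ± 0.31. Grhl1, a grainyhead factor of the skin barrier, fell by 5.999 ± 0.399. Trp63, the master gene of stratified epithelia, was 9.86, 10.40, 10.31 and 10.51 in control skin and 3.78, 5.61, 4.79, 3.55 and 4.02 in the tumors and fell by 5.92 ± 0.40 (limma adjusted p = 1.01e-05). All 4 of its probesets were called lower. Gata3, a factor of hair follicle and epidermal lineages, fell by 6.24 ± 0.24.

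Among 17 regulators of the epithelial to mesenchymal transition, 4 rose and none fell, and the median difference was 0.38, beside 10.3% of all genes that were higher. Besides Hmga2, Snai1, which encodes a repressor of Cdh1, was 5.76, 5.28, 5.65 and 4.92 in control skin and 7.06, 9.06, 9.48, 9.56 and 8.32 in the tumors. It rose by 3.30 ± 0.49 (limma adjusted p = 0.00167) and no tumor overlapped control skin. Zeb1 (1.09 ± 0.28) and Tgfb1 (0.75 ± 0.22) rose less, and their groups overlapped. Zeb1 lost its call without control skin 1, 2 or 4 (adjusted p up to 0.0684), and Tgfb1 without 7 of the 9 arrays in turn (up to 0.118). Without tumor 4, 7 members of the list were called, and without control skin 1, 2 or 4 it was 2. Snai2, Twist1, Twist2 and Zeb2 were not called.

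Mesenchymal cell markers showed 3 rises and no fall among 15, with a median of 0.31, beside the 10.3% of all genes that were higher. Cdh11, a mesenchymal cadherin, rose by 2.89 ± 0.42, fibronectin (Fn1) by 1.58 ± 0.28 and the receptor Pdgfra by 1.56 ± 0.36. Vimentin (Vim) was already 12.48 ± 0.26 (SD, n = 4) in control skin and 13.22 ± 0.44 (SD, n = 5) in the tumors, and did not pass (adjusted p = 0.0557). N-cadherin (Cdh2) was 3.96 to 4.47 in control skin and 6.74, 8.58, 3.23, 5.20 and 8.64 in tumors 1 to 5 and did not pass (adjusted p = 0.191). Dermal fibroblasts in control skin express many genes of this list, whose mean there was 10.56 to 10.70.

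Wound matrix and its cross-linking enzymes gave 8 rises and no fall among 16 (median 1.34), while 10.3% of all genes were higher. Vcan, a large proteoglycan of provisional matrix, was 7.22, 8.03, 7.92 and 7.92 in control skin and 11.30, 10.66, 11.36, 10.43 and 10.52 in the tumors. It rose by 3.08 ± 0.26 (limma adjusted p = 4.21e-05), and Loxl3, a lysyl oxidase, by 2.91 ± 0.44. Of 17 fibrillar collagen and matrix genes 4 rose, namely Col11a1 (3.86 ± 1.09), Thbs1 (2.62 ± 0.63), Col6a1 (1.15 ± 0.27) and Col6a2 (1.10 ± 0.24), of which Col11a1 lost its call without 7 arrays in turn, Col6a1 without 2 and Thbs1 without control skin 1. Col1a1, Col1a2 and Col3a1 were not called. The collagen count was 9 without tumor 4 and 2 without control skin 1, 2 or 4. Among 18 matrix metalloproteinases and inhibitors 5 rose, with Adamts4, an aggrecanase, higher by 3.37 ± 0.50 and Mmp9, a gelatinase that neutrophils also carry, by 2.54 ± 0.73. Without tumor 4 the count was 8. Mmp9 lost its call when any of 7 arrays was left out (adjusted p up to 0.105).

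**Figure D2:**
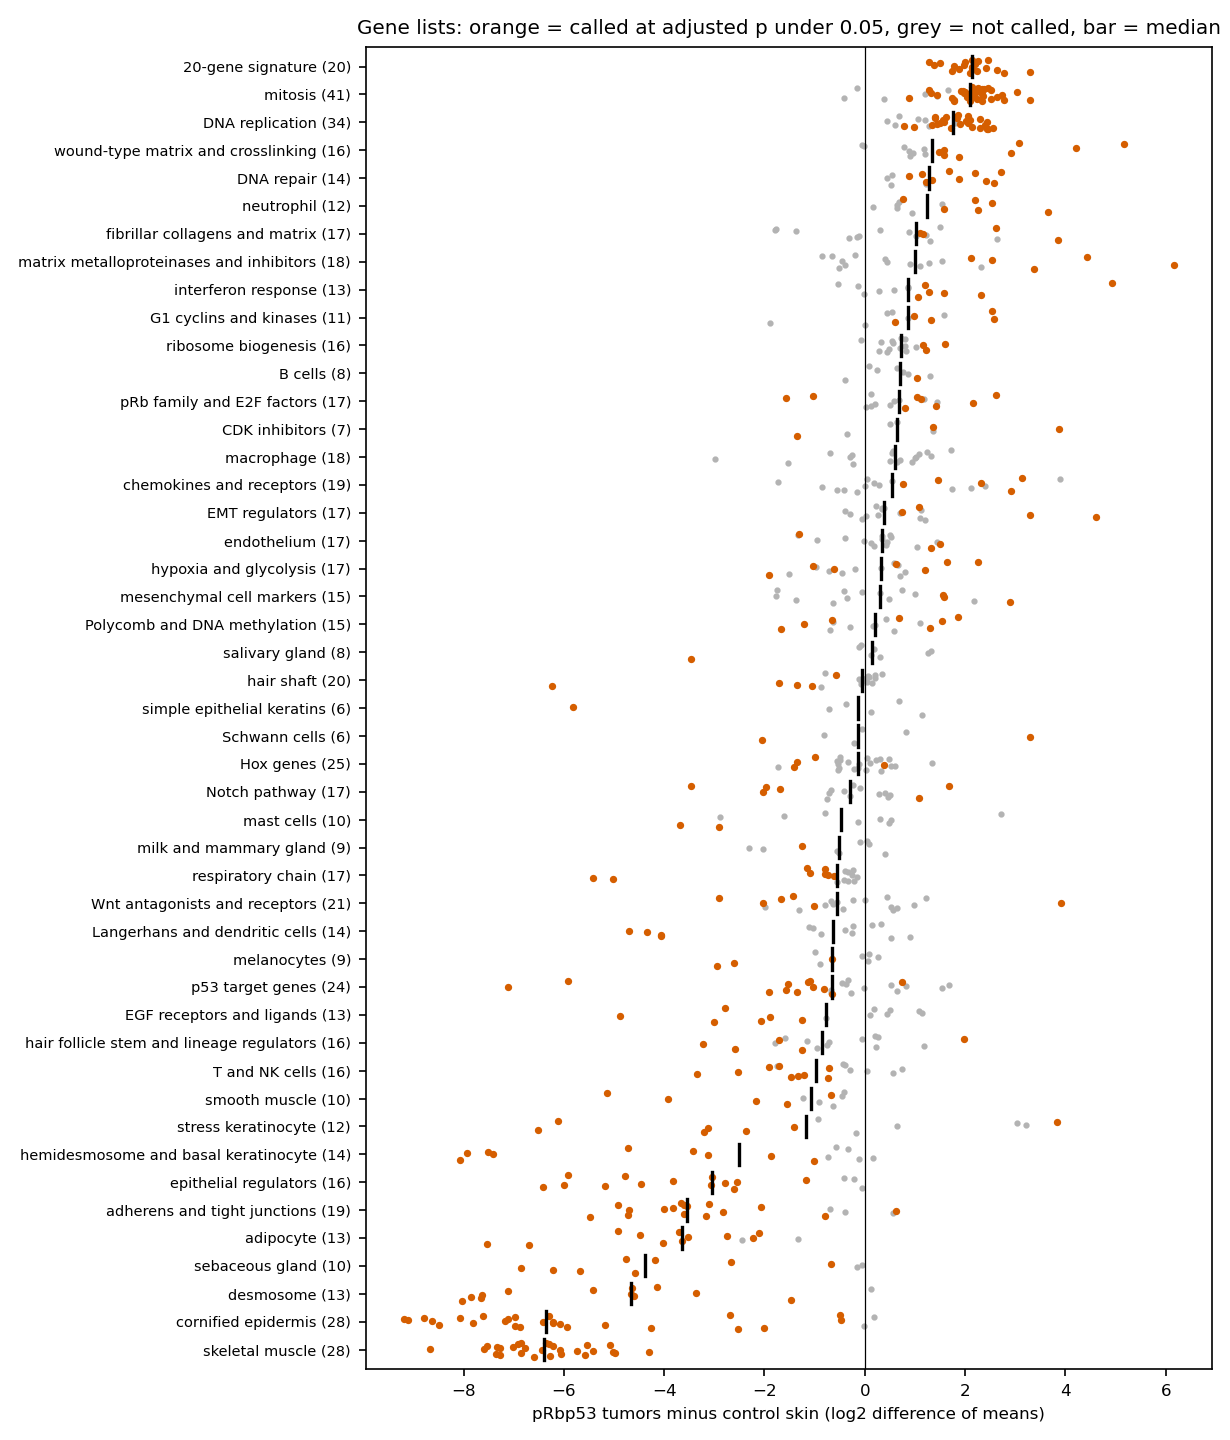
Difference in log2 signal between pRbp53 tumors and control skin for each measured gene of 47 lists, sorted by the list median (black bar), with the number of measured genes in brackets. Orange genes passed an adjusted p of 0.05 and grey genes did not; lists of cell division lie highest (medians 2.13, 2.10 and 1.76), and skeletal muscle (-6.39) and cornified epidermis (-6.35) lie lowest.

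Genes of cell division rose together. Of 41 measured mitosis genes 34 rose and none fell (median 2.10), and of 34 DNA replication genes 27 rose and none fell (median 1.76). Among all genes 10.3% were higher. The lowest counts came without control skin 1, with 23 and 19 genes. Control skin 1 had the lowest mean signal of both lists among the controls, 6.06 for mitosis and 6.75 for replication, and tumor 3 had the lowest among the tumors, 7.50 and 8.12. The controls otherwise reached at most 6.88 and 7.61, so the groups did not overlap for either mean.

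Bub1, a kinase of the spindle checkpoint, was 4.14, 5.80, 5.51 and 5.40 in control skin and 8.15, 9.82, 7.28, 8.73 and 8.60 in the tumors, and rose by 3.30 ± 0.50 (limma adjusted p = 0.00190). Its other probeset was not called (0.23). The condensin subunit Ncapg rose by 3.03 ± 0.45, the chromosomal passenger Birc5 by 2.78 ± 0.36 and Cdk1, the kinase that starts mitosis, by 2.63 ± 0.41. Ect2, an exchange factor of cytokinesis, rose by 2.74 ± 0.59. Tumor 2 was the highest and tumor 3 the lowest of the 5 for each of these 5 genes. In replication, the origin kinase Cdc7 rose by 2.56 ± 0.38, the loading factor Cdc6 by 2.46 ± 0.43, the helicase subunit Mcm6 by 2.44 ± 0.45 and the helicase cofactor Cdc45 by 2.43 ± 0.42. Pcna and Mcm5 were not called.

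All 20 genes of a signature of p53-deficient tumors that the study defined were called higher here, with differences from 1.29 to 3.30, and the groups did not overlap for 17 of them. The study built the signature on other arrays of tumors from the same mouse lines and on human tumors and then applied it to these arrays. Most of its genes are also in the mitosis list, and it was taken up here with earlier results of these arrays known. Cenpa had another probeset that was called lower, by 0.70. The weakest was Plk1, a mitotic kinase (1.29 ± 0.38), which lost its call without any 1 of 8 arrays (limma adjusted p up to 0.109). Kpna2, a nuclear import factor, and Cdc20, an activator of the anaphase ligase, also lost theirs, without 7 and 5 arrays. Without control skin 1, 15 of the 20 were called.

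The pRb and E2F genes themselves moved both ways, with 6 of 17 higher and 2 lower. Tfdp1, the dimer partner of E2F, was 8.41 to 8.92 in control skin and 10.34, 12.59, 9.97, 9.93 and 13.51 in the tumors, and rose by 2.62 ± 0.75 (limma adjusted p = 0.0393). E2f3 was 6.46 to 6.89 in control skin and 7.99 to 8.44 in the tumors and rose by 1.42 ± 0.13 (adjusted p = 9.90e-05), with little spread. E2f7, a repressor E2F, rose by 2.16 ± 0.59. The pRb relative Rbl1 was higher by 1.05, Lin9 by 1.13 and E2f1 by 0.81, and Rbl2 was lower with a difference of -1.04. Tfdp1 and E2f7 lost their calls when any control array was left out, and the count of higher members was then 2.

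Of 11 G1 cyclins and kinases 5 rose. Cyclin E2 (Ccne2) rose by 2.57 ± 0.56, Skp2, which marks inhibitors of the cycle for degradation, by 2.53 ± 0.36, and cyclin E1 (Ccne1) and Cdk2 by 1.31 ± 0.35 and 0.98 ± 0.22. Ccnd1, Cdk4 and Myc were not called. Without control skin 1 the count was 3, since Ccne1 and Cdk2 lost their calls.

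CDK inhibitors split. Cdkn2a, whose products p16 and p19Arf act on the pRb and p53 pathways, was 4.66, 3.90, 4.89 and 3.57 in control skin and 8.32, 7.52, 8.14, 7.56 and 9.08 in the tumors. It rose by 3.87 ± 0.38 (limma adjusted p = 1.33e-04) with a wide gap between the groups. Its neighbour Cdkn2b rose by 1.36 ± 0.34, with the call lost without control skin 1 or 2 (adjusted p up to 0.0714). Cdkn1a, the main arrest gene induced by p53, fell by 1.34 ± 0.41, which was the weakest of these calls (adjusted p = 0.0497) and was lost without 7 of the 9 arrays in turn. Cdkn1b and Cdkn1c were not called.

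**Figure D3:**
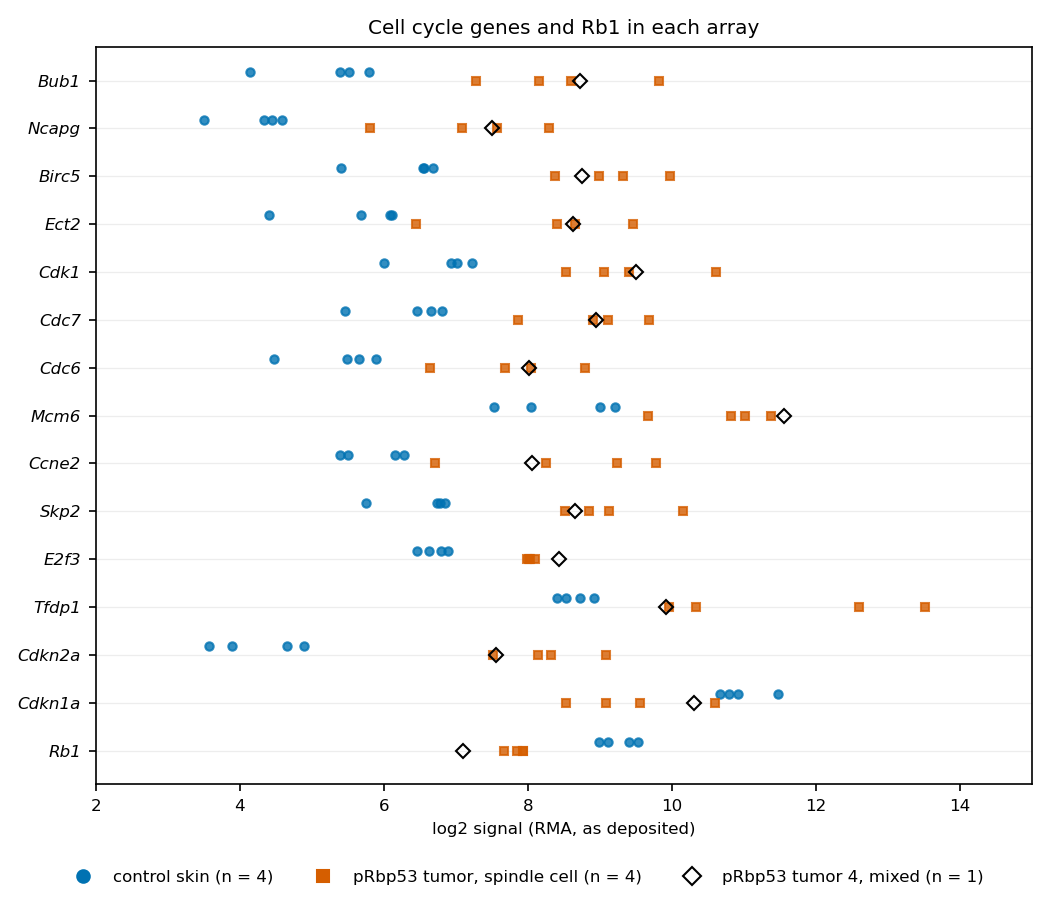
Log2 signal of cell cycle genes and Rb1 in each of the 9 arrays, with circles for control skin, squares for spindle cell pRbp53 tumors and diamonds for mixed tumor 4. Each gene from Bub1 to Cdkn2a lies higher in the 5 tumors than in the 4 controls, and Cdkn1a and Rb1 lie lower.

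The list of p53 target genes also holds Trp63 and Trp73, relatives of p53. Of its 24 measured members 11 were lower, both relatives among them, and 1 was higher, with a median of -0.66. Besides Perp and Trp63, which keratinocytes express as epithelial genes, Ccng1 was 11.33 to 11.71 in control skin and 8.95 to 10.11 in the tumors and fell by 1.92 ± 0.23 (limma adjusted p = 5.16e-04). The death receptor Eda2r fell by 1.57 ± 0.44, a call lost without 6 arrays in turn (limma adjusted p up to 0.0945). Mdm2 and Bbc3 were not called. The count of lower members was 6 without control skin 1 or 2 and 13 without tumor 4.

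DNA repair genes rose in 10 of 14 cases, and in 7 without control skin 1 or 4, and none fell. Brca1 rose by 2.57 ± 0.41, the checkpoint kinase Chek1 by 2.42 ± 0.36 and the ubiquitin ligase Rad18 by 2.20 ± 0.21. Rad18 varied little among the tumors, from 7.71 to 8.08, against 4.95 to 5.99 in control skin. Chromatin regulators moved both ways, with 4 of 15 Polycomb and DNA methylation genes higher and 3 lower. Among all genes 10.3% were higher and 13.1% lower. The Polycomb reader Cbx7 fell by 1.67 ± 0.18, and Phc1, of the same complexes, rose by 1.53 ± 0.18, while Uhrf1 and Dnmt1 of maintenance methylation rose by 1.86 ± 0.51 and 1.30 ± 0.32, both with overlapping groups and calls lost without 8 and 3 arrays in turn. Without control skin 1, 2 or 4 the count of higher members was 1. Of 16 ribosome biogenesis genes 3 rose, with the nucleolar gene Gnl3 higher by 1.23 ± 0.15, and this count was 1 without control skin 1 or 3 and 10 without tumor 3.

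Signalling genes of epidermis fell in part. Of 13 EGF receptors and ligands 6 fell and none rose. Without tumor 4, 3 were called higher and 6 lower, and with all 16 arrays in 1 fit 3 were lower. Erbb3, a partner receptor of the family, was 10.01 to 10.47 in control skin and 4.59 to 6.50 in the tumors and fell by 4.89 ± 0.37 (limma adjusted p = 2.19e-05). The ligands Btc, Tgfa and Egf fell by 2.999 ± 0.619, 2.78 ± 0.33 and 2.07 ± 0.15. Of 17 Notch pathway genes 4 fell and 2 rose, and the feedback inhibitor Nrarp fell by 3.47 ± 0.26, the ligand Jag2 fell by 2.03 ± 0.16, and Notch3 and Notch1 fell by 1.97 ± 0.43 and 1.68 ± 0.27. The 2 that rose were Notch4 (1.68) and Dll4 (1.07), a count near the 10.3% of all genes that were higher. Among 21 Wnt antagonists and receptors 5 fell, among them the ligands Wnt4 (-2.92 ± 0.57) and Wnt3 (-1.67 ± 0.30), and Sfrp2 rose by 3.91 ± 0.76, beside 13.1% of all genes that were lower and 10.3% that were higher.

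Genes of skeletal muscle, fat and sebaceous gland were lower in the tumors. All 28 skeletal muscle genes fell, with differences from -8.67 to -4.30 and a median of -6.39. The mean of the list was 12.19 to 12.51 in control skin, above that of cornified epidermis, and 4.81 to 7.81 in the tumors. Myh4, a fast myosin, was 3.92, 3.81, 3.44 and 3.69 in tumors 1 to 4 and 7.20 in tumor 5, against 12.86 to 13.40 in control skin. The kinase gene Ckm and the myosin light chain gene Myl1 were also highest in tumor 5, at 8.60 and 9.04. Of 13 adipocyte genes 11 fell (median -3.64), and Adipoq, the adipose hormone, was 7.45 in tumor 5 against 3.84 to 4.69 in the other tumors. Of 10 sebaceous gland genes 8 fell (median -4.38), and the fatty alcohol enzyme Far2 fell by 6.86 ± 0.22. Among respiratory chain genes, 8 of 17 fell, led by Cox8b (-5.41 ± 0.24) and Cox7a1 (-5.02 ± 0.24), both forms found in muscle. The part of muscle and fat in other falls was not tested.

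The immune markers moved in several ways. None of 18 macrophage genes was called by limma at adjusted p of 0.05, although their median difference was 0.60, and Cd163 had the largest difference (-2.98 ± 0.93, adjusted p = 0.0555). Without tumor 4, 4 were higher. The macrophage mean spanned 7.29 in the mixed tumor to 10.30 in a spindle cell tumor, against 7.84 to 9.54 in control skin. Neutrophil genes rose in 6 of 12 cases, led by the lectin Clec4d (3.64 ± 0.65), but 8 were called without tumor 4 and 1 without any of the 4 controls, tumor 2 or tumor 5. Clec4d was 9.21, 7.70, 8.46 and 8.44 in the spindle cell tumors, 5.45 in the mixed tumor and 3.995 to 4.350 in control skin. T and NK cell genes fell in 9 of 16 cases, and in 6 without control skin 2, and none rose. Cd3g, of the T cell receptor complex, fell by 3.34 ± 0.35 and Cd7 fell by 2.54 ± 0.16. In the list of Langerhans and dendritic cells 4 of 14 genes fell, among them Cd207, which marks Langerhans cells (-4.07 ± 0.31), and 8 without tumor 4. Epcam, also in the list of adherens and tight junctions, is among the 4. Over all 5 tumors H2-Aa, H2-Ab1, H2-Eb1, Cd74 and Ciita were not called.

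Of 19 chemokines and receptors 5 rose. The receptor Cxcr4 was 5.19 to 6.17 in control skin and 7.44, 9.34, 8.49, 9.11 and 8.82 in the tumors and rose by 3.13 ± 0.38 (limma adjusted p = 5.08e-04). Cxcl10 rose by 2.31 ± 0.51, Ccl2 by 2.92 ± 0.83 and Cxcl2 by 1.45 ± 0.38, but Ccl2 lost its call without 8 arrays in turn and Cxcl2 without 5 (limma adjusted p up to 0.1 and 0.0767). The count was 11 without tumor 4 and 2 without control skin 2, 3 or 4. Interferon response genes rose in 6 of 13 cases, with Ifit2 higher by 1.29 ± 0.26, and in 3 without control skin 1, control skin 3 or tumor 2. The 6 include Xaf1, whose direction is uncertain. With all 16 arrays in 1 fit the count was 1, namely Xaf1. Slpi, an inhibitor of leukocyte proteases, rose by 3.83 ± 0.76, while the other called members of the stressed keratinocyte list fell, of which Krt17 fell by 6.52 ± 1.16 and Sprr1a fell by 6.12 ± 0.38.

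Other lists gave fewer calls. Of 17 endothelial genes, 2 rose, Emcn (1.495 ± 0.246) and Angpt2 (1.33 ± 0.36), and Vwf fell by 1.32 ± 0.38, near the share of 10.3% of all genes that were higher. Angpt2 lost its call without 5 arrays in turn and Vwf without 6 (limma adjusted p up to 0.0856 and 0.112). In 17 hypoxia and glycolysis genes 4 rose and 3 fell, beside 10.3% and 13.1% of all genes. The count of falls was 1 without control skin 2, 3 or 4 or tumor 2, and 5 without tumor 4. The glucose transporter Slc2a3 rose by 2.27 ± 0.31, Vegfa by 1.64 ± 0.37 and Hif1a by 1.20 ± 0.22, whereas Aldoa, the muscle aldolase, fell by 1.92 ± 0.24. Hox genes gave 1 rise and 3 falls among 25, the largest of the falls at Hoxa7 (-1.42 ± 0.41), whose call was lost without 7 of the 9 arrays in turn (limma adjusted p up to 0.118), and these counts lie at or below the 10.3% and 13.1% of all genes. Without 6 of the arrays in turn the count of lower Hox genes was 1. Of 20 hair shaft genes 5 fell, with a list median of -0.06. The largest of these falls was that of Gata3 (-6.24), and Krt32, the only keratin of the list that was called, fell by 1.71 ± 0.09. Of 10 smooth muscle genes 5 fell, and Synpo2 fell by 5.14 ± 0.47 and Myh11 fell by 3.92 ± 0.28. Melanocyte genes fell in 3 of 9 cases, led by Dct (-2.94 ± 0.26). Mast cell genes fell in 2 of 10, Cpa3 and Cma1, both with overlapping groups since tumor 3 held 9.87 and 9.51. Without tumor 3, 5 mast cell genes were lower, and without any of 7 other arrays none was. Among 16 hair follicle stem and lineage regulators 4 fell and Runx1 rose (1.98), a call that was lost without 8 of the 9 arrays in turn, and the stem cell receptor Lgr6 fell by 3.23. Single calls came from the B cell list (Cd22, 1.04 higher, lost without control skin 2), simple epithelial keratins (Krt23, -5.82), salivary gland (Amy1, -3.47) and milk and mammary gland (Elf5, -1.26), and Schwann cell genes gave Ncam1 higher by 3.29 and Mbp lower (-2.04).

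The mixed tumor, tumor 4, had a profile apart from the other 4 pRbp53 tumors, described here without a test since it is 1 array. At 156 genes it lay at least 3 above, and at 36 genes at least 3 below, each other tumor, against 10 to 21 and 0 to 3 genes for the other 4 tumors. The largest such gap belonged to Gli1, the transcription factor that hedgehog signalling induces, at 13.99 against 5.23, 4.70, 4.80 and 4.78 in tumors 1, 2, 3 and 5 and 6.28 to 6.83 in control skin. Hhip, which binds hedgehog ligands and is itself a target of the pathway, was 11.48 against 4.06 to 4.92. Other hedgehog genes were looked up after these values were seen. The hedgehog receptor gene Ptch1, another target, was 13.95 in tumor 4, 7.81 to 8.28 in the spindle cell tumors and 9.04 to 9.50 in control skin, and Gli2 was 10.95 against 8.08 to 9.15. Gli3, which acts largely as a repressor of the pathway, ran the other way, at 8.10 against 9.15, 9.98, 10.53 and 9.43 in the spindle cell tumors and 7.37 to 8.28 in control skin. The pathway component Smo was not apart, at 9.40 within the 8.35 to 10.00 of the other pRbp53 tumors. In p53 tumor 7, also labelled mixed, Gli1 was 10.62 and Gli2 10.37, the highest values of the p53 tumors. Its Ptch1 (9.29) and Hhip (4.055) lay within the range of the other p53 tumors. In p53 tumor 1, also labelled mixed, Gli1 was 5.08. High Gli1 was thus neither particular to pRbp53 tumor 4 nor common to all mixed tumors. Ngfr, a neurotrophin receptor, was 12.45, Psd2 10.86, Oc90 11.90, Coch 10.64, Frmpd1 12.96 and the forkhead factor Foxd1 10.22, all at least 6.5 above the next pRbp53 tumor. Such a gap does not by itself show a rise over control skin. Coch read 3.61 to 3.93 in the spindle cell tumors. Its difference from control skin over the 5 tumors was -3.57, without a call.

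Without tumor 4, Gli1 was lower in the spindle cell tumors than in control skin (-1.60 ± 0.17, limma adjusted p = 2.88e-04), as were Frmpd1 (-1.38 ± 0.22) and Foxd1 (-0.74 ± 0.15). These genes were picked by the gap of tumor 4 above the spindle cell tumors, which favours low values there. The adjusted p is therefore no independent test. Over all 5 tumors these genes had positive differences of 0.22, 0.08 and 0.63 and no call. A mean over the 5 tumors describes neither the mixed tumor nor the spindle cell tumors for them.

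Tumor 4 kept part of the epithelial signal. E-cadherin (Cdh1) was 10.89, 10.90, 11.37 and 11.11 in control skin, 9.43 in tumor 4 and 5.01, 4.48, 3.91 and 5.10 in the spindle cell tumors. Epcam (9.43 against 4.81 to 5.36), Krt17 (9.67 against 3.66 to 3.97), Dsp of the desmosome (10.14 against 3.55 to 5.09), Krt14 (9.32 against 4.36 to 5.47) and Esrp1 (8.49 against 3.68 to 3.98) showed the same order. Krt5, Krt1, Trp63 and the desmosomal cadherins did not, with Krt5 at 5.71 beside 5.05 to 5.72 and Trp63 at 3.55 beside 3.78 to 5.61. In the other direction, tumor 4 lay below each spindle cell tumor and below control skin for Ereg (3.95), Glipr1 (5.34), AW551984 (3.75), Hspb8 (5.16), Bhlhb9 (4.72), Medag (5.36) and the growth arrest gene Gas1 (7.60). Glipr1 had 9.83 to 11.58 in the spindle cell tumors, and Gas1 11.55 to 13.18.

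**Figure D4:**
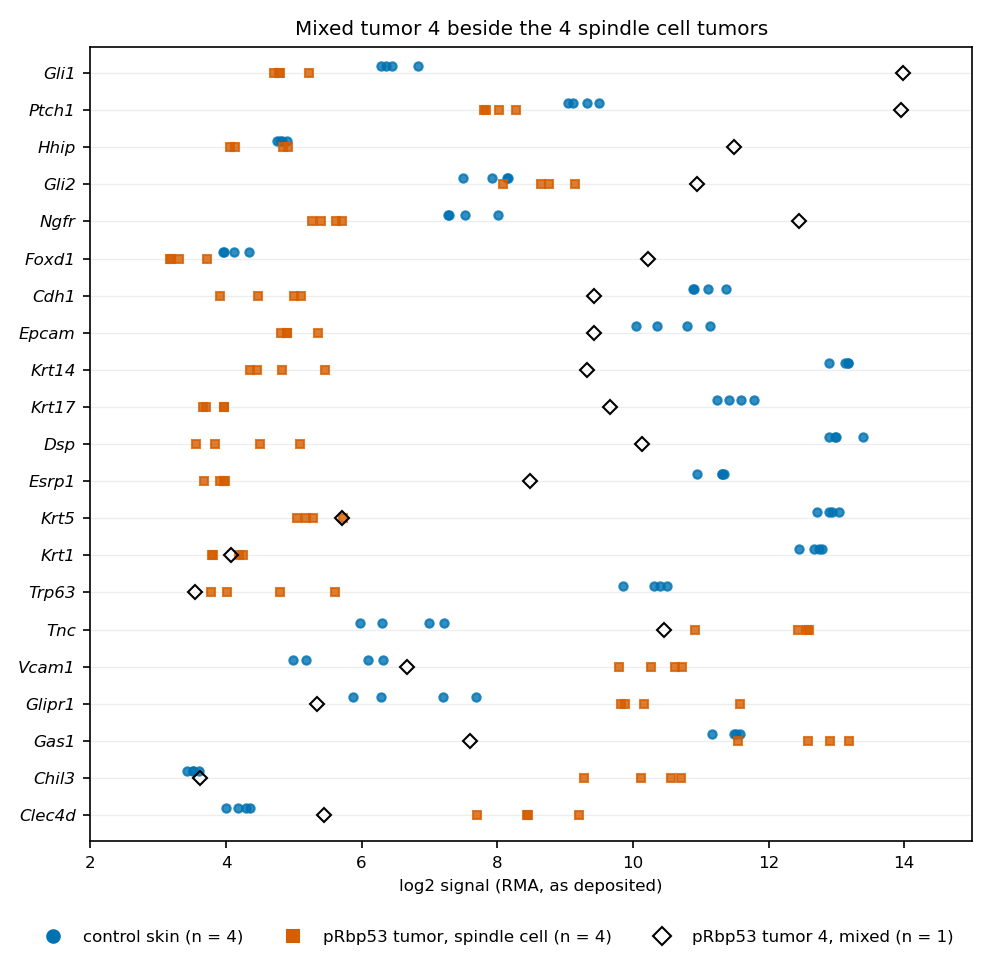
Log2 signal of genes at which mixed tumor 4 (diamonds) is set beside the 4 spindle cell tumors (squares) and control skin (circles). Gli1, Ptch1, Hhip and Gli2 are highest in tumor 4 (Gli3 and Smo, not drawn, are not), Cdh1 to Esrp1 lie between control skin and the spindle cell tumors there, Krt5, Krt1 and Trp63 do not, and Glipr1, Gas1 and Chil3 are lowest in tumor 4 among the tumors.

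The tumors also varied among themselves in single genes. Besides Gli1 and Psd2, the largest SDs among the 5 tumors were those of Rpl39l (3.78), Wif1 (3.40), Epyc (3.37), Sox2 (3.36), Igf2 (3.34) and Slc25a31 (3.33). Rpl39l, a ribosomal protein paralog, was 5.60 and 4.75 in tumors 1 and 2 and 12.47, 11.54 and 12.08 in tumors 3, 4 and 5. The stem cell factor Sox2 was 8.49 in tumor 1 and 9.93 in tumor 4, and 2.97 to 3.31 in the others, while Epyc, a small proteoglycan of cartilage, was 11.04 in tumor 3 alone. Igf2, an imprinted fetal growth factor, was 13.79 in tumor 4, 10.41 in tumor 3 and 6.04 to 6.96 in the rest. Slc25a31 was 10.50 in tumor 1 and at most 3.23 elsewhere. None of these 6 genes was called against control skin.

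The last question is where the pRbp53 tumors differ from the 7 p53 tumors. In the fit of all 16 arrays 214 of 18193 genes (1.18%) were called at an adjusted p of 0.1, but 29 when the tumor arrays were fitted without control skin. Histology differs between these groups, since 4 of 5 pRbp53 tumors and 1 of 7 p53 tumors were labelled spindle cell carcinoma, so genotype and histology are partly confounded, and the part of histology was not tested. Among genes also called against control skin, the largest differences higher in pRbp53 tumors were those of the matrix genes Thbs4 (4.23 ± 0.87) and Tnn (3.80 ± 0.71), Mdk (3.49 ± 0.61), the sulfatase Sulf1 (3.13 ± 0.59), Tshz3, Nsg1, Mageh1 and Armcx4. The largest lower were Fxyd3, an ion pump subunit of epithelia (-5.22 ± 1.18), Plet1 (-4.74 ± 1.06), the epithelial galectin Lgals7 (-4.08 ± 0.64), Urah, Gbp2b, Tmem40, Lratd1 and the epithelial factor Tfap2a. Leaving out 1 tumor array in turn, the call between the genotypes was lost for Thbs4 without 4 arrays, Nsg1 without 6, Plet1 and Urah without 7, Fxyd3 without 8, Armcx4 without 9, Tmem40 without 10 and Tshz3 without 1. The call against control skin was lost without 8 arrays in turn for Thbs4, 6 for Tfap2a and 2 for Gbp2b and Lratd1.

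With the tumor arrays alone 2 of these 16 genes stayed below 0.1, Mageh1 (2.50 in either fit, limma adjusted p = 0.0335) and Lgals7 (adjusted p = 0.0628). Lgals7 was 5.97, 4.87, 6.12, 5.78 and 5.48 in pRbp53 tumors 1 to 5, below each p53 tumor, whose values ran from 7.19 to 11.65. Mageh1 was 6.90 to 8.51 in pRbp53 tumors, above each p53 tumor (3.98 to 6.02). In the fit of all 16 arrays no mitosis, DNA replication or DNA repair gene was called between the genotypes. The median differences of these lists were -0.03, 0.20 and 0.05. Other lists did hold calls, among them 1 of 11 G1 cyclins and kinases, 3 of 25 Hox genes and 2 of 6 simple epithelial keratins. Rb1 itself was 8.06 ± 0.33 (SD, n = 7) in p53 tumors, and its difference between the tumor groups was -0.36 ± 0.19 (adjusted p = 0.477).

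**Figure D5:**
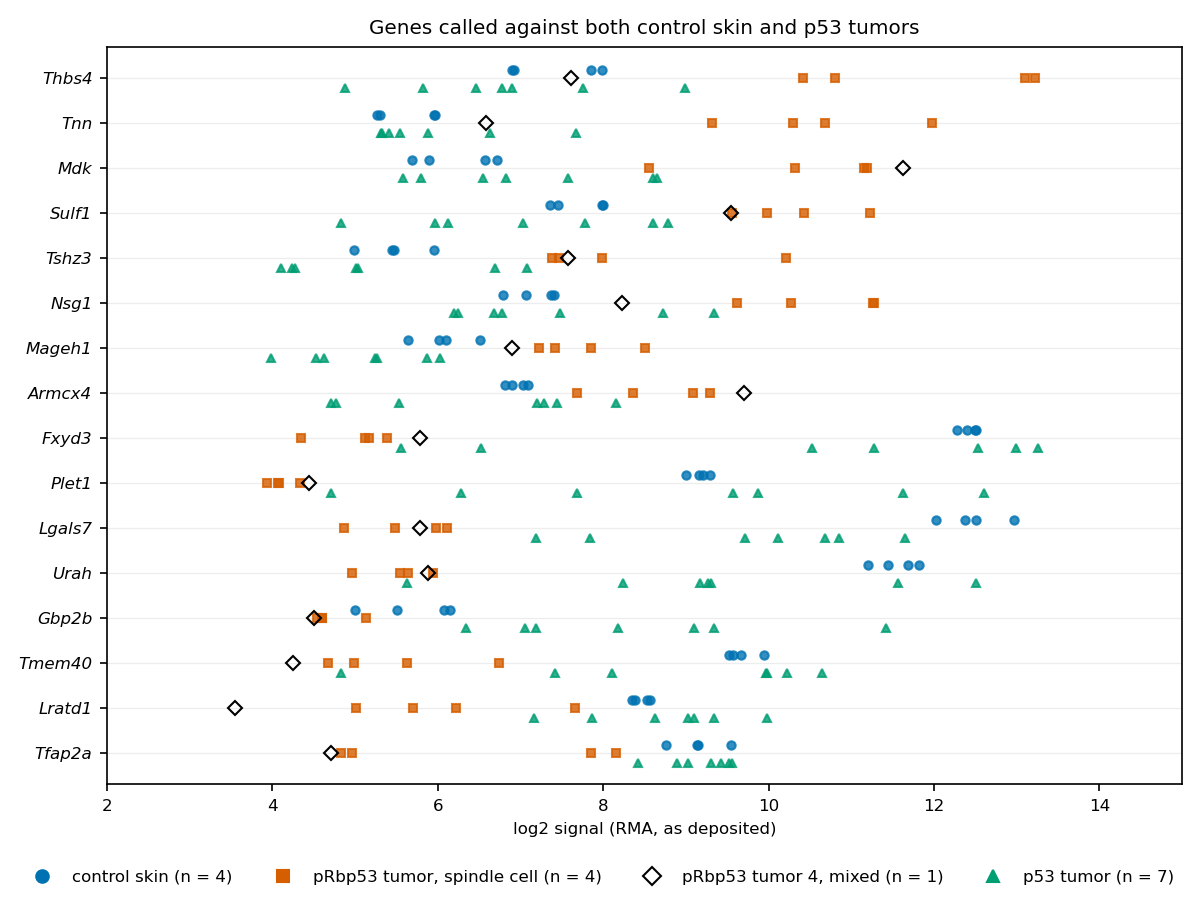
Log2 signal of the 16 genes with the largest differences between pRbp53 and p53 tumors among those also called against control skin, with triangles for p53 tumors, squares for spindle cell pRbp53 tumors, diamonds for mixed pRbp53 tumor 4 and circles for control skin. The pRbp53 tumors lie apart from the p53 tumors for Lgals7 and Mageh1, whereas for Fxyd3 and Plet1 some p53 tumors are nearly as low as the pRbp53 tumors.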

How the data were processed

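Total RNA of each sample was hybridized to 1 Affymetrix MOE430 2.0 array. The authors normalized the arrays with RMA (version not given in the sources used here) and deposited log2 values of 45101 probesets, which were used as deposited. After 64 array controls were left out, 45037 probesets were tested with limma 3.58.1 in R 4.3.3 (lmFit and eBayes on the 9 arrays, Benjamini-Hochberg over all probesets, adjusted p of 0.05). The difference from p53 tumors came from a fit of 3 groups over all 16 arrays (adjusted p of 0.1). Of the probesets, 34945 had 1 gene symbol, 932 several and 9160 none in a platform annotation that can be old. A gene was read from its probeset of 1 symbol with the highest mean over all 16 arrays, so that a gene with several probesets may hide disagreement. For example, Bub1 was called at 1 of 2 probesets, Zeb1 at 1 of 4, Cbx7 and Tgfa each at 1 of 3 and Runx1 at 2 of 6.

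Named genes are Rb1, the 15 largest rises and falls among called genes whose groups did not overlap, up to 4 called members of each list, up to 8 genes each way that also differed from p53 tumors, 8 each way at which tumor 4 stood farthest apart, the 8 most variable among tumors and the 20 genes of the study's signature. The members and the 47 lists were chosen with earlier results of these data known. Some genes are not reported here. Replicates were grouped by sample title. Alternatives were other normalizations, filters, fits, thresholds, a replicate block and leaving out each array. The fit was tested on simulated data. The number of arrays limits the precision. Scripts used Python 3.11.15 with pandas 2.3.3, numpy 2.4.6 and matplotlib 3.10.9.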

Additional observations from a re-analysis of the deposited data

Results flagged for a closer look

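Within a group of 4 or 5 arrays, 58 of 446 groups of values tested had 1 array far from the others by Dixon's gap test. Chance gives about 1 in 20. Of the 58, 29 belonged to mixed tumor 4 and 8 to control skin 1, and many of these genes were named because tumor 4 stood apart, so their number is no test. Tumor 4 lay above the other tumors for Cdh1 (9.43), Coch (10.64), Dsp (10.14), E2f3 (8.44), Epcam (9.43), Esrp1 (8.49), Foxd1 (10.22), Frmpd1 (12.96) and Gli1 (13.99). Tumor 4 lay above the other tumors for Grhl1 (6.10), Hhip (11.48), Krt14 (9.32), Krt15 (6.14), Krt17 (9.67), Krtdap (5.92), Lgr6 (7.87), Lrrc15 (10.93) and Ngfr (12.45). Tumor 4 lay above the other tumors for Oc90 (11.90), Pof1b (5.55) and Psd2 (10.86). Tumor 4 lay below the other tumors for Bhlhb9 (4.72), Chil3 (3.61), Clec4e (3.61), Ereg (3.95), Glipr1 (5.34), Hspb8 (5.17), Medag (5.36) and Vcam1 (6.67). Control skin 1 lay below the other controls for Aurka (5.64), Birc5 (5.41), Cenpa (6.29), Chek1 (4.68), Esrp1 (10.94), Krt14 (12.90), Skp2 (5.75) and Vcan (7.22). Control skin 2 lay above the other controls for Lrrc15 (6.11). Control skin 2 lay below the other controls for Ngp (4.76). Control skin 3 lay above the other controls for Plk1 (6.74) and Slc25a31 (3.39). Control skin 3 lay below the other controls for Adipoq (9.10) and Cd163 (7.05). Tumor 1 lay above the other tumors for Gbp2b (5.13) and Slc25a31 (10.50). Tumor 2 lay above the other tumors for Ccne1 (9.07), Col17a1 (4.86), Jag2 (7.18) and Tshz3 (10.21). Tumor 3 lay above the other tumors for Cbx7 (6.16), Cma1 (9.51) and Epyc (11.04). Tumor 3 lay below the other tumors for Nop58 (8.37). Tumor 5 lay above the other tumors for Adipoq (7.45), Ckm (8.60), Myh4 (7.20), Plin4 (6.23) and Thrsp (5.64).

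Between the genotypes, the difference of pRbp53 minus p53 tumors was tested with limma in the fit of all 16 arrays and passed an adjusted p of 0.1 for 20 named genes. It was positive for AW551984 (4.24), Armcx4 (2.38), Col6a2 (2.36), Lrrc15 (2.16), Mageh1 (2.50), Mdk (3.49), Nsg1 (2.78), Sulf1 (3.13), Thbs4 (4.23), Tnn (3.80) and Tshz3 (2.92). It was negative for Fxyd3 (-5.22), Gbp2b (-3.70), Lgals7 (-4.08), Lratd1 (-3.10), Plet1 (-4.74), Tfap2a (-3.06), Tmem40 (-3.48), Uqcrc2 (-0.67) and Urah (-3.79). Histology differed between the tumor groups, and its part was not tested.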

How the results depend on the processing

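Rb1 kept its direction and call under every alternative run (-1.41 to -1.71; -1.41 to -1.65 leaving 1 array out). The main fit called 8237 probesets. Counts over all probesets, not limited to these, were 4810 with the replicate number as a block (1907 higher, 2903 lower) and 12474 with array weights (6563 higher). The methods' t-test after Benjamini-Hochberg adjustment gave 5079 (2168 and 2911). An adjusted p of 0.01 gave 4273 (1589 and 2684), and a log2 difference of at least 1 gave 4845 (1980 and 2865). With all 16 arrays in 1 fit 2494 were higher. Leaving out 1 array gave 5893 to 9744 in all, 2363 to 4851 higher and 3367 to 4893 lower, each lowest higher count coming without control skin 1 and each highest count without tumor 4. The numbers did not pair the samples (correlations of deviations -0.13 to 0.02), so the block is no better design. At the study's own corrected threshold the methods' t-test left 9 probesets, and limma 175. The causes of these changes were not tested. Median centring moved the share of higher calls from 46.8% to 51.7%, and quantile normalization to 48.9%.

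Against p53 tumors, where all alternatives were chosen after seeing the data, 468 probesets became 89 with tumor arrays alone, 1003 with array weights, 586 with the replicate block and 203 (without p53 tumor 2) to 881 (without p53 tumor 6) leaving 1 array out. Averaging control skin 2 and 4, and spindle cell tumors without control skin 3, were also chosen after seeing the data and gave 6042 and 8590 against control skin. The sign reversed without tumor 4, and with control skin 3 left out too, for Gli1 (-1.60, -1.48), Frmpd1 (-1.38, -1.41) and Foxd1 (-0.74, -0.66). Leaving out 1 array gave -1.60 to 0.72, -1.38 to 0.51 and -0.74 to 1.01 for these 3 genes. Of 201 named genes called, 156 kept the call whichever array was left out and 149 were called by the methods' t-test.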

Other observations

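Control skin 3 held signal of milk protein genes, with Csn2 at 9.83 and Csn3 at 10.72, against 3.51 to 4.47 and 4.29 to 6.34 in the other controls. Xist, which is expressed from the inactive X chromosome of female mammals, was 5.13, 11.86, 7.39 and 11.81 in control skin 1 to 4 and 5.64, 12.03, 9.26, 11.74 and 5.26 in tumors 1 to 5, and no sex is in the labels.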
